A study of Urocitellus parryii with 3 samples.

Results

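miRNAs that mark white blood cells were followed in the liver of a hibernator, the arctic ground squirrel (Urocitellus parryii), at 3 stages of its year. They are 10 of the 577 miRNA entries on an Agilent array with probes for mouse miRNAs, chosen by name: mmu-miR-223, mmu-miR-142-3p, mmu-miR-142-5p, mmu-miR-150, mmu-miR-181a, mmu-miR-181b, mmu-miR-342-3p, mmu-miR-155, mmu-miR-146a and mmu-miR-146b, written below without the prefix for mouse. The stages were late torpor (spelled "topor" in the labels), when the animal is cold and inactive, early arousal, when it rewarms, and post-reproduction, outside hibernation. Livers of squirrels of the same stage gave 1 pool of total RNA in equal amounts, and each pool was hybridised to 1 array with the dye Cy3. The number, age and sex of the animals in a pool are not given in the sources used here, and the labels name no treatment or altered genotype. With 1 pool and 1 array per stage there is no spread between animals, so no test between stages was made. The errors below come from the repeated spots of a probe on an array.

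miRNAs are short RNAs that guide Argonaute proteins to messenger RNAs and lower their translation and stability. Several of them are made almost entirely in blood-forming cells. miR-223 is abundant in granulocytes and monocytes, and also in platelets, and it restrains granulocyte production and activation. The arms of the miR-142 hairpin are found in all leukocyte lineages. miR-150 is high in mature B and T lymphocytes and lowers Myb, miR-181a sets the sensitivity of the T cell receptor in developing T cells, and miR-342-3p, from an intron of Evl, is also frequent in lymphocytes. miR-155, cut from the transcript of the Bic gene, is induced when lymphocytes and macrophages are activated. miR-146a and miR-146b are induced through NF-kappaB and damp it by lowering Traf6 and Irak1. In liver such miRNAs come from Kupffer cells (the resident macrophages), other resident leukocytes and the blood held in the tissue, and miR-181a and miR-146a are made in other liver cells too. In such bulk RNA, fewer cells of a type and less RNA per cell cannot be told apart.

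Each of the 10 miRNAs had 2 probes with 10 spots each. After spots marked as outliers were left out, 190 of their 200 spots remained for post-reproduction, 197 for late torpor and 189 for early arousal. A probe was called detected on an array where the scanner software placed over 50% of the spots kept for it well above background, and a miRNA was called measured where a probe was detected on all 3 arrays. By this rule 6 of the 10 were measured, beside 23.8% of the 567 mouse entries. The post-reproduction array detected 7 of the 10, beside 25.2% of mouse entries, that of late torpor 6 (27.9%) and that of early arousal 7 (26.8%). The median negative control spot lay between 1.21 and 1.69 intensity units and the 95th percentile between 5.25 and 5.31. Spots of the 10 viral entries reached higher, with a 95th percentile of 19.0 to 23.0 units, and 1 or 2 of these entries were detected per array. The means of miR-142-5p (12.5 to 22.2 units) and of the probes of miR-150, miR-181b and miR-155 lay under that level on each array. All 7 miRNAs of the hepatocyte list were measured, which alone is a weak check of the liver label. Of these, miR-122 had means of 36641 to 42786 units and was the brightest measured mouse miRNA on each array.

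The probes bind part of the mature miRNA, and the file headers place that part in the mouse genome, build mm9. The target of miR-223 lies on chromosome X at 93438224 to 93438244, with 20 and 21 bases in the 2 probes. The arms of miR-142 lie 15 bases apart on chromosome 11, miR-142-5p at 87570371 to 87570389 and miR-142-3p at 87570405 to 87570427. miR-181a (chromosome 1, 139863054 to 139863067) and miR-181b (139863236 to 139863249) lie 168 bases apart. miR-150 lies on chromosome 7 at 52377138 to 52377153, miR-342-3p on chromosome 12 at 109896896 to 109896912, miR-155 on chromosome 16 at 84714393 to 84714410, miR-146a on chromosome 11 at 43187937 to 43187955 and miR-146b on chromosome 19 at 46417283 to 46417301. The targets span 13 to 23 bases, around the median of 17 bases over all 1646 mouse probes with a position. Those of miR-181a and miR-181b are the shortest, with 13 and 14 bases. In miR-150, miR-181a, miR-181b and miR-146a the probe with 1 base more was the better detected of the 2. Exon and intron annotation of these positions was not used here. Whether miR-181a and miR-181b, or miR-146a and miR-146b, share signal through their similar sequences was not tested.

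miR-223, the myeloid miRNA, was brightest in late torpor. Its 21-base probe had spots from 382 to 430 intensity units (median 411) in post-reproduction. In late torpor they ran from 525 to 602 (median 552), and in early arousal from 375 to 432 (median 403). The late torpor spots lay above every spot of the other arrays, which overlapped each other. The 20-base probe gave the same order of late torpor against the rest, with medians of 126, 181 and 127 units in post-reproduction, late torpor and early arousal. To compare arrays, the log2 intensity of each was set against its own 75th percentile, taken over those 250 probes that every array detected. On that scale miR-223 was higher in late torpor than in post-reproduction by 0.67 ± 0.02 (SE from spots), which is 1.60-fold (95% interval from spots 1.55 to 1.65). Early arousal was lower than late torpor by 0.49 on the log2 scale, a difference of -0.49 ± 0.02, and stood 0.19 ± 0.02 above post-reproduction. With the percentile taken over all probes the last difference was -0.19, below 0, and so it was with strict detection, which asks for every spot of a probe to be well above background (-0.080), and with the total signal that the scanner software gives per miRNA (-0.053). It all but vanished without scaling (0.00069), with the all-probe scaling that sets no floor under dim spots (0.0033) and after quantile normalization (0.0097). Scaled spots overlapped in both probes in this comparison.

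**Figure D1:**
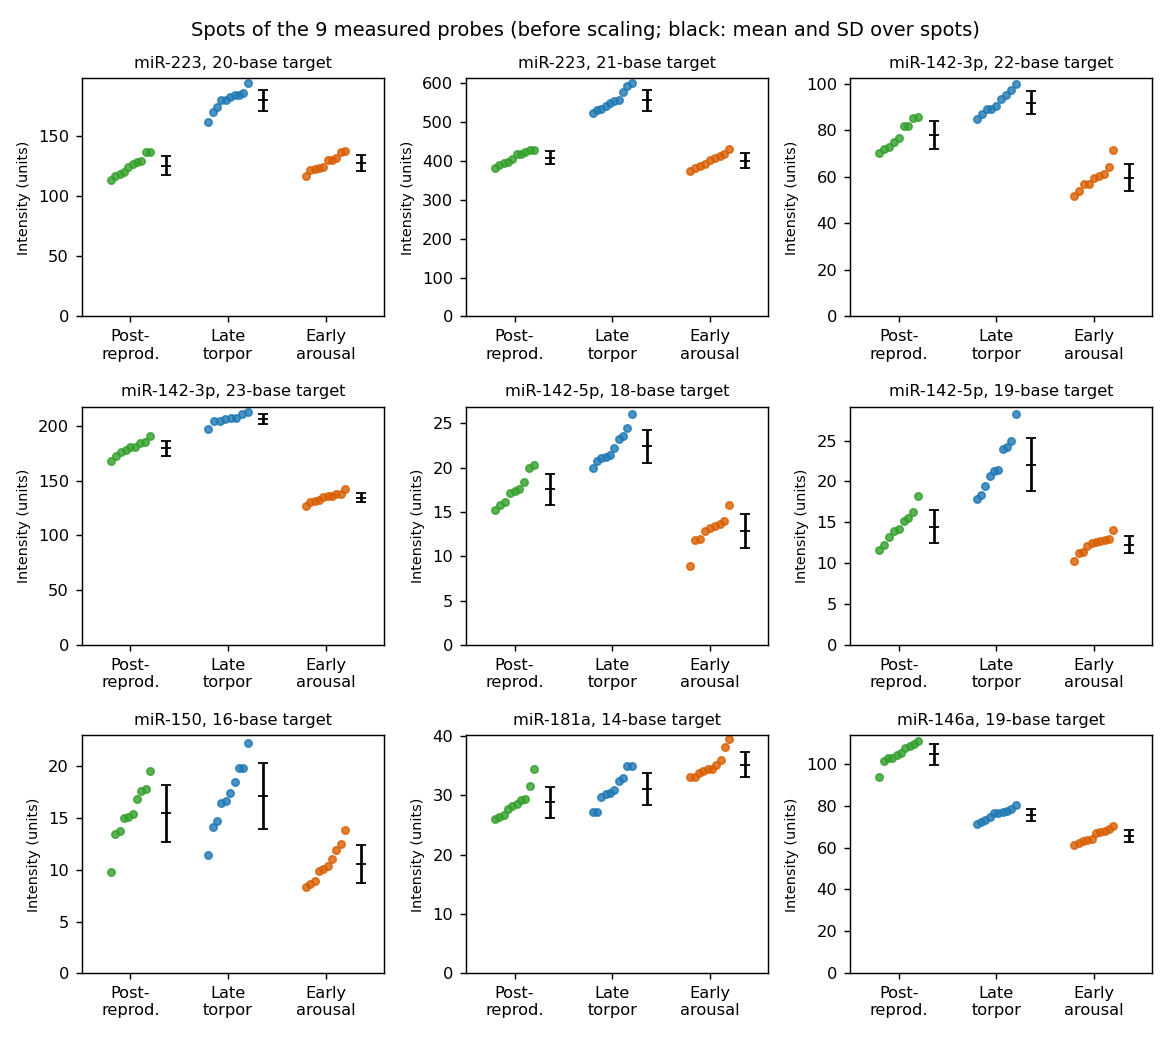
Intensity (units, linear axis from 0, before scaling between arrays) of each kept spot of the 9 probes detected on all 3 arrays, by stage, with the mean and SD over spots in black. The late torpor spots of miR-223 (525 to 602 units with the 21-base target) and of the 23-base probe of miR-142-3p lie above the other arrays, those of miR-146a fall from 93.6 to 111 units in post-reproduction to 61.3 to 70.0 in early arousal, and those of miR-181a are brightest in early arousal.

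The arms of miR-142, the pan-leukocyte hairpin, were also brightest in late torpor, and dimmest in early arousal. The 23-base probe of miR-142-3p had spots from 168 to 191 units (median 180) in post-reproduction. They ran from 197 to 213 (median 207) in late torpor and from 127 to 142 (median 135) in early arousal. No spot ranges of the 3 arrays overlapped. The 22-base probe, with medians of 76.8, 90.5 and 59.5 units in post-reproduction, late torpor and early arousal, had the same order, and the last spots of early arousal (up to 71.6) reached the first of post-reproduction (from 70.2), as the last of these (up to 85.8) reached the first of late torpor (from 84.9). After scaling, miR-142-3p was higher in late torpor than in post-reproduction by 0.41 ± 0.02, 1.33-fold (1.28 to 1.37). In early arousal it differed by -0.22 ± 0.03 from post-reproduction and by -0.63 ± 0.03 from late torpor, the last being 1.54-fold lower (1.49 to 1.60). These 3 signs were the same under each of 13 other settings, though the first difference was only 0.018 with the all-probe scaling that sets no floor under dim spots.

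miR-142-5p, the other arm, was far closer to background, and its signal in early arousal was little above the detection limit. Its 18-base probe had spots from 15.2 to 20.2 units (median 17.3) in post-reproduction, 20.0 to 26.0 (median 21.8) in late torpor and 8.88 to 15.8 (median 13.1) in early arousal. The 19-base probe ran from 11.7 to 18.2, from 17.9 to 28.2 and from 10.2 to 14.0 units in the same order. All kept spots were well above background but 1 of 19 in early arousal. The scaled difference was 0.67 ± 0.06 between late torpor and post-reproduction, 1.59-fold (1.47 to 1.72), and -0.83 ± 0.06 between early arousal and late torpor, 1.78-fold lower (1.65 to 1.92). Early arousal and post-reproduction differed by -0.16 ± 0.06, with overlapping spots in both probes, and this difference was above 0 (0.071) with normexp background correction. The 2 probes were apart by 0.25 in the first of these comparisons (0.54 and 0.80) and by 0.023 in the second.

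Among the lymphoid miRNAs, miR-150 followed the order of miR-142, near the detection limit. It was measured through its 16-base probe alone. The spots of that probe ran from 9.85 to 19.6 units (median 15.3) in post-reproduction, of which 9 of 10 were well above background. In late torpor they ran from 11.4 to 22.3 (median 17.0, 10 of 10) and in early arousal from 8.35 to 13.9 (median 10.3, 6 of 10). The spots of all 3 arrays overlapped. The scaled difference was 0.34 ± 0.13 between late torpor and post-reproduction, -0.36 ± 0.12 between early arousal and post-reproduction and -0.70 ± 0.12 between early arousal and late torpor. The first was below 0 (-0.054) with the all-probe scaling without a floor, and the second above 0 (0.018) with normexp. The third, 1.62-fold lower (1.38 to 1.90), was below 0 under each of the 12 other settings that gave miR-150 a value. With strict detection miR-150 was not measured.

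miR-181a, also of the lymphoid group, had another order, with early arousal at the top. It too rested on 1 probe, with a 14-base target and 10 of 10 spots well above background on each array. Spots ran from 26.1 to 34.5 units (median 28.4) in post-reproduction, from 27.2 to 34.9 (median 30.7) in late torpor and from 33.1 to 39.5 (median 34.4) in early arousal. Neighbouring arrays in that order overlapped before scaling. After scaling, early arousal was above post-reproduction by 0.47 ± 0.05, 1.39-fold (1.30 to 1.48), with no overlap of spots, and this sign was the same under each of 13 other settings. Late torpor was above post-reproduction by 0.30 ± 0.06, which was below 0 with the all-probe scaling without a floor (-0.093) and with the total signal (-0.0046). Early arousal was above late torpor by 0.18 ± 0.05, and below it, at -0.073, when the percentile was taken over all probes.

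miR-181b and miR-342-3p, the other lymphoid members, could not be compared by fold. The 14-base probe of miR-181b was detected in post-reproduction (8 of 10 spots well above background, mean 12.0 ± 1.24 units, SD over spots) and in early arousal (5 of 9, 10.2 ± 1.79). In late torpor it had 4 of 10 such spots and 9.11 ± 2.14 units. The spots of that probe overlapped between all 3 arrays (10.1 to 13.7, 6.74 to 12.6 and 7.40 to 12.4 units in post-reproduction, late torpor and early arousal), so no fold is given. miR-342-3p had 0 spots well above background on any array and mean intensities of 0.0208 to 0.220 units, under the median negative control spot.

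Of the miRNAs of immune activation, miR-146a was the measured one, and it was brightest outside hibernation. Its 19-base probe had spots from 93.6 to 111 units (median 104) in post-reproduction. They ran from 71.1 to 80.1 (median 76.5) in late torpor and from 61.3 to 70.0 (median 65.3) in early arousal. The 3 arrays did not overlap, before or after scaling. The scaled difference was -0.27 ± 0.03 between late torpor and post-reproduction, 1.21-fold lower (1.16 to 1.26). Between early arousal and post-reproduction it was -0.49 ± 0.03, 1.40-fold lower (1.35 to 1.46), and between early arousal and late torpor -0.21 ± 0.03. All 3 were below 0 under each of 13 other settings, although the last came to -0.0052 with the all-probe scaling without a floor. The 18-base probe, which was not detected in early arousal (2 of 8 spots well above background), had means of 18.9, 14.1 and 9.57 units in post-reproduction, late torpor and early arousal, the same order.

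miR-155 was detected on no array by the spot rule. Its 18-base probe had means of 10.5 ± 1.72 units (SD over 7 spots) in post-reproduction, 6.07 ± 1.76 in late torpor and 7.74 ± 1.86 in early arousal. Of these spots 3, 1 and 1 were well above background, and the arrays overlapped. The 17-base probe stayed within 0.337 to 1.48 units. These means of the longer probe are above the 95th percentile of negative control spots, but under the lowest spot that the software marked as well above background (10.7, 8.49 and 10.1 units), so no fold is given. miR-146b had 0 spots well above background and mean intensities of -1.16 to -0.477 units. The deposited detection flag of the scanner software is more lenient. It marked 8 of the 10 members as detected on each array, miR-155 and miR-181b included and miR-342-3p and miR-146b not, beside 31.7%, 32.6% and 29.3% of the mouse entries in early arousal, late torpor and post-reproduction.

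**Figure D2:**
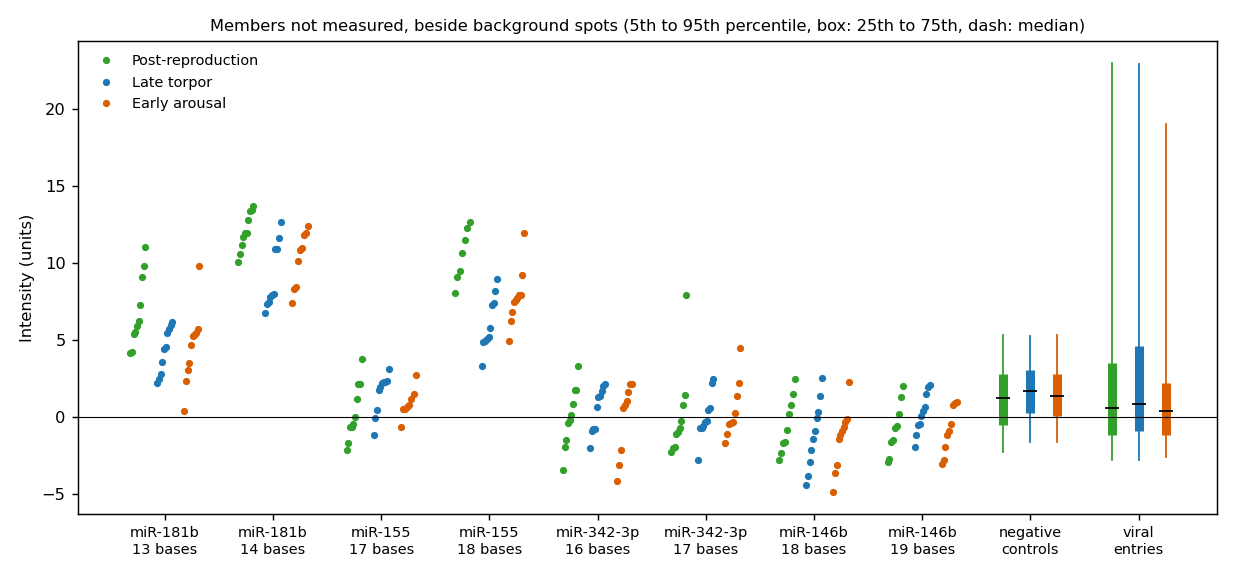
Intensity (units, linear axis) of each kept spot of the 4 members that were not measured, by probe (named by the length of its target) and stage, with the 672 negative control spots and the spots of 10 viral entries of each array at the right, drawn as percentiles. miR-342-3p and miR-146b lie among the negative controls, while the 18-base probe of miR-155 and the 14-base probe of miR-181b lie mostly above the 95th percentile of the negative controls (5.25 to 5.31 units). The late torpor spots of that miR-155 probe start at 3.32 units, with a median of 5.46, so many of them lie under that percentile.

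The 6 measured members were set against all 135 measured mouse miRNAs. Between late torpor and post-reproduction, the median of the 6 was 0.37 and that of all measured miRNAs 0.13. A difference was counted where it was at least 0.5 on the log2 scale (1.41-fold), exceeded 2 SE and had the same sign in each measured probe. By this rule 2 of 6 were higher, miR-223 and miR-142-5p, beside 13.3% of all, and 0 were lower, beside 4.44%. The first count was 0 without scaling (6.67% of all), with the all-probe scaling without a floor (2.22%), with the total signal (4.44%) and with lenient detection, which asks for 1 such spot per probe (8.72%). In the last 3 of these 1 member was lower, beside 25.9%, 16.3% and 9.40% of all. With lenient detection 8 members had a value, and the lower one was not among the 6, of which miR-146a stood at -0.48. Over the settings miR-223 ran from 0.28 to 0.69 and miR-142-5p from 0.28 to 0.67. From the top, miR-223 was at place 10 of 135, miR-142-5p at 11, miR-142-3p at 27, miR-150 at 40 and miR-181a at 46. miR-146a was at place 15 from the bottom. 5 of 6 were above 0, as were 65.2% of all measured miRNAs.

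Between early arousal and late torpor, 3 of the 6 were lower by the same rule (miR-142-5p, miR-150 and miR-142-3p), beside 7.41% of all measured miRNAs, and 0 were higher, beside 2.22%. miR-223, at -0.49, fell just short of it. The miR-142 arms in this count come from the same hairpin, and miR-150 rested on 1 probe near the detection limit. The median of the 6 was -0.56, against -0.094 for all. From the bottom, miR-142-5p was at place 4, miR-150 at 7, miR-142-3p at 8 and miR-223 at 12 of 135, while miR-146a was at 42. miR-181a stood apart at place 21 from the top. With normexp, a background correction that adds 50 units to each spot, 0 of the 6 were past the rule (1.48% of all lower), and with the all-probe scaling without a floor 1 was lower (4.44%). With the percentile over all probes 4 were lower (23% of all), and 4 with the median of the spots of each probe (9.63%). With each array set against the median of its detected probes 2 were lower (5.19%). This comparison is the difference of the other 2 comparisons, since all 3 draw on the same 3 arrays, so it adds no further measurement.

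Between early arousal and post-reproduction, 0 of 6 were past the rule in either direction, beside 9.63% higher and 8.89% lower among all. With the percentile over all probes, 4 of 6 were lower, beside 33.3% of all, whose median was then -0.31. Without scaling 2 of 6 were lower, beside 19.3%. The members spread to both sides, with a median of -0.19 against 0.062 for all. miR-181a was at place 15 from the top, and miR-146a and miR-150 at 13 and 21 from the bottom. A difference of at least 1 on the log2 scale (2-fold) was reached by 0 of 6 in every comparison, beside 2.22% of all measured miRNAs in late torpor against post-reproduction, 3.7% in early arousal against post-reproduction and 2.96% in early arousal against late torpor.

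**Figure D3:**
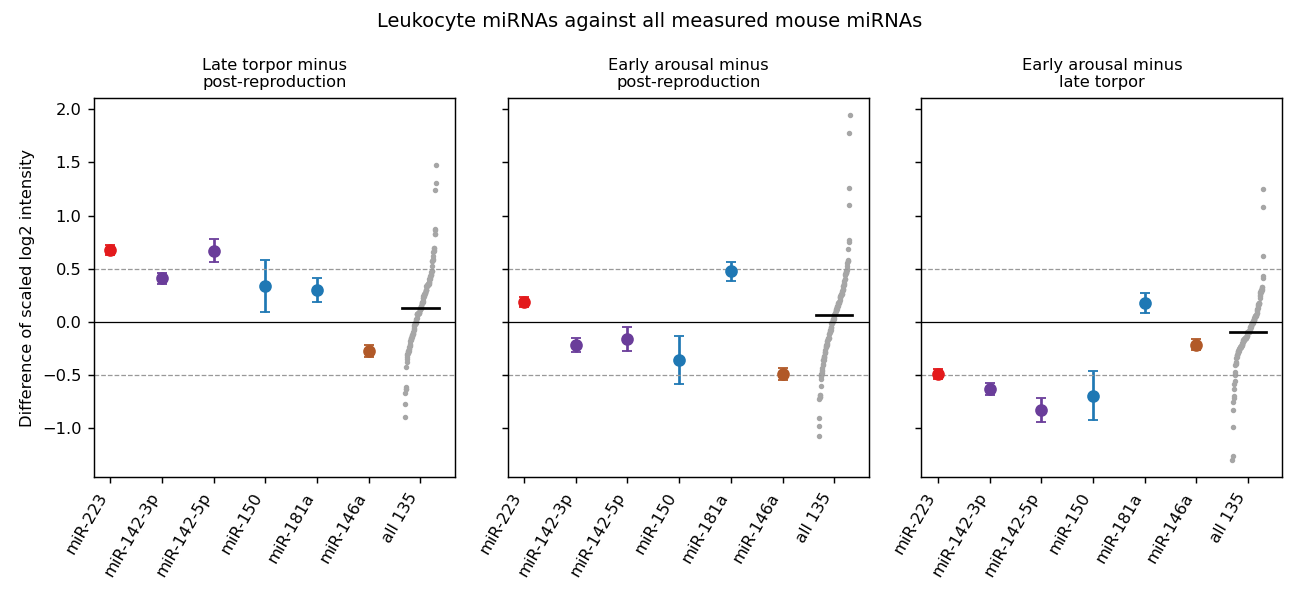
Difference of scaled log2 intensity in each of the 3 comparisons for the 6 measured members (points, with 95% intervals from spots: red, myeloid; purple, pan-leukocyte; blue, lymphoid; brown, immune activation) and for all 135 measured mouse miRNAs (grey, with their median as a black bar). Dashed lines mark 0.5 and -0.5. miR-223 (0.67) and the miR-142 arms are high in the first panel, miR-142-5p (-0.83), miR-150 and miR-142-3p are low in the third, and miR-181a (0.18) is the only member above 0 there.

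The choice of scaling moved all miRNAs together, so the members were also read against the median of all 135. Over the settings that median ran from -0.26 to 0.18 in late torpor against post-reproduction, from -0.34 to 0.12 in early arousal against late torpor and from -0.31 to 0.10 in early arousal against post-reproduction. Against it, miR-223 was higher in late torpor than in post-reproduction by 0.54, and by 0.41 to 0.56 over all 14 settings. miR-142-3p was higher by 0.28 (0.16 to 0.33), miR-142-5p by 0.54 (0.13 to 0.67), miR-150 by 0.21 (0.027 to 0.31 over 13 settings) and miR-181a by 0.17 (0.073 to 0.23), while miR-146a was at -0.41 (-0.48 to -0.25). Early arousal against late torpor gave -0.39 for miR-223 (-0.44 to -0.32), -0.53 for miR-142-3p (-0.54 to -0.35), -0.74 for miR-142-5p (-0.80 to -0.14), -0.60 for miR-150 (-0.71 to -0.085), 0.27 for miR-181a (0.095 to 0.31) and -0.12 for miR-146a (-0.28 to -0.014). Early arousal against post-reproduction gave 0.12 for miR-223 (0.054 to 0.14), -0.28 for miR-142-3p (-0.29 to -0.19), -0.22 for miR-142-5p (-0.33 to -0.013), -0.42 for miR-150 (-0.49 to -0.066), 0.41 for miR-181a (0.16 to 0.47) and -0.55 for miR-146a (-0.70 to -0.32). Of the 13 other settings, 4 only shift a whole array and cannot change these values. In the 9 others (8 for miR-150) each member kept its sign. Some of these 9 reuse the spot values of a member, so that only the scaling and the median of all move. Strict detection does so for miR-223, miR-142-3p, miR-181a and miR-146a, and the brightest probe does so for miR-150, miR-181a and miR-146a. In such cases the kept sign is a weaker check.

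**Figure D4:**
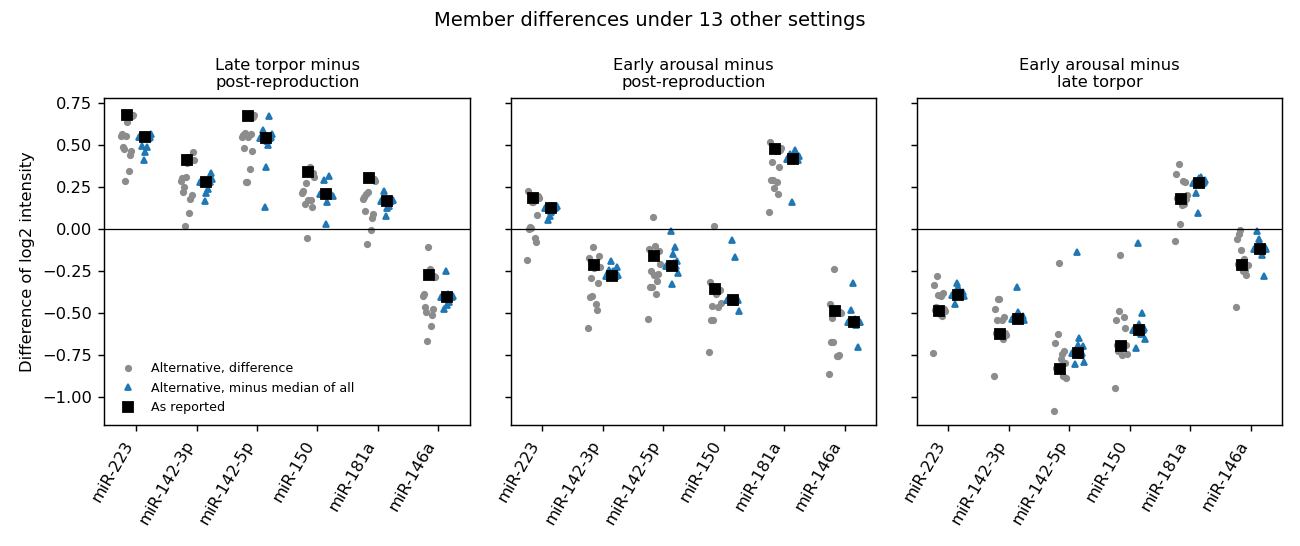
Log2 difference of each measured member as reported (black squares) and under 13 other settings (12 for miR-150), as such (grey circles) and minus the median of all measured miRNAs of the same setting (blue triangles), in the 3 comparisons. The grey circles of miR-181a and miR-150 cross 0 in the first panel and the blue triangles of each member, which 4 of the settings leave in place by construction, stay on 1 side of 0, for miR-223 between 0.41 and 0.56 in the first panel.

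Pairs of measured members of different lineages were compared by the difference of their differences, in which shifts of a whole array cancel. Of 13 such pairs, 10 differed by more than 2 spot SE in each of the 3 comparisons, though not the same 10 each time. The same count over pairs of other measured miRNAs was not made. So it does not show that lineages differ more than other pairs do. In late torpor against post-reproduction, the difference of miR-223 exceeded that of miR-142-3p by 0.26 ± 0.03 and that of miR-181a by 0.38 ± 0.06, and it exceeded that of miR-146a by 0.95 ± 0.04. In early arousal against post-reproduction, miR-223 exceeded miR-142-3p by 0.40 ± 0.04 and stood at -0.29 ± 0.05 against miR-181a. In early arousal against late torpor miR-223 less miR-142-3p was 0.14 ± 0.04, and 0.022 ± 0.02 with normexp. Against the other arm, miR-142-5p, miR-223 differed by 0.0031 ± 0.06 in late torpor against post-reproduction (95% interval from spots -0.12 to 0.12), by 0.35 ± 0.06 in early arousal against post-reproduction and by 0.34 ± 0.06 in early arousal against late torpor. miR-142-3p less miR-181a was 0.11 ± 0.06 in late torpor against post-reproduction (-0.0098 to 0.23).

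Within the lymphoid group, miR-150 and miR-181a went apart in early arousal. The difference of miR-150 less that of miR-181a was -0.83 ± 0.13 against post-reproduction and -0.87 ± 0.13 against late torpor. The ranges were -0.92 to -0.23 and -0.94 to -0.18 over the 8 settings left besides the 4 scalings that only shift a whole array. Of these, lenient detection, kept outlier spots and the brightest probe use the same spots for both miRNAs and return the reported difference. In late torpor against post-reproduction miR-150 less miR-181a was 0.038 ± 0.14, with a 95% interval from spots of -0.23 to 0.31. miR-142-3p and miR-150 were within 2 spot SE of each other in all 3 comparisons, at 0.073 ± 0.13, 0.14 ± 0.12 and 0.068 ± 0.12. The intervals of these differences, -0.18 to 0.32, -0.097 to 0.38 and -0.17 to 0.30, are wide because miR-150 was dim.

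Whether the arms of miR-142, cut from the same hairpin, moved by equal amounts was not settled. In late torpor against post-reproduction the 2 probes of miR-142-5p alone were 0.25 apart, a gap that the spot SE leave out. miR-142-3p less miR-142-5p was -0.26 ± 0.06 in late torpor against post-reproduction and 0.20 ± 0.06 in early arousal against late torpor, and with normexp these became 0.033 and -0.21. It was -0.057 ± 0.07 in early arousal against post-reproduction (95% interval from spots -0.19 to 0.076).

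Red blood cell miRNAs had the signs of miR-223 in each comparison, and those of miR-142 and miR-150 except in early arousal against post-reproduction. There the red blood cell miRNAs were above 0 (0.18 to 0.55), while miR-142-3p (-0.22), miR-142-5p (-0.16) and miR-150 (-0.36) were below. miR-146a had the opposite sign in both comparisons with post-reproduction, and miR-181a in early arousal against late torpor. The 3 of the red blood cell list (miR-144, miR-451 and miR-486) had a median of 1.31 in late torpor against post-reproduction, with a range of 1.24 to 1.48. The median was 0.53 in early arousal against post-reproduction and -0.76 in early arousal against late torpor. All 3 were past 0.5 in the first and the last of these, and their part in the leukocyte values was not tested. The 7 hepatocyte miRNAs had medians of 0.30, 0.16 and -0.033 in the same order and 0 past 0.5 in any comparison. Those of the 4 endothelial miRNAs were 0.024, -0.11 and -0.18, and of the 4 measured miRNAs of stellate and smooth muscle cells 0.029, 0.024 and -0.052. The endothelial list was split. In late torpor against post-reproduction miR-126-3p (0.35) and miR-126-5p (0.27) were above 0, and miR-221 (-0.23) and miR-222 (-0.42) below. Early arousal against post-reproduction gave 0.25, 0.36, -0.48 and -0.71 for the same miRNAs. The bile duct list had 2 of 5 measured, with medians of -0.75, -0.53 and 0.22.

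As a list, immune miRNAs that are not restricted to leukocytes, such as miR-21 and miR-27a, had medians closer to that of all miRNAs than the members had. Of 14 on that list 10 were measured (miR-221 and miR-222 stand on the endothelial list too), with medians of 0.12, 0.083 and -0.14 in late torpor against post-reproduction, early arousal against post-reproduction and early arousal against late torpor. The first ranged from -0.42 for miR-222 to 0.37 for miR-21, and 0 of 10 were past 0.5. In the second, miR-222 (-0.71) and miR-27a (-0.53) were lower past 0.5. The list then ran from -0.71 to 0.45 (miR-322), beside -0.49 to 0.47 for the measured members. In the third, 0 of 10 were past 0.5. miR-132, miR-147, miR-187 and miR-9 were not detected, with means of -1.56 to 1.41 units. The relatives of the members on the array, miR-181c, miR-181d and the opposite strands of miR-181a, miR-342, miR-146b and miR-150, gave 0 measured of 6.

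miRNAs outside the member list with the pattern of each member were found by the largest gap between 2 profiles over the 3 comparisons, which rest on 3 arrays. Members were left out of this search, though some were nearer to each other. The largest gap of miR-142-3p was 0.14 to miR-150 and 0.26 to miR-142-5p. For miR-223 the nearest was miR-128, with a gap of 0.086, before miR-19a (0.21) and miR-93 (0.25). Outside the member list, miR-340-3p was the nearest to miR-142-3p (0.068), to miR-150 (0.18) and to miR-142-5p (0.29). miR-378* was the second for miR-142-3p (0.13) and miR-150 (0.20), and miR-148b the third for both (0.23 and 0.30), while miR-128 (0.36) and miR-378* (0.39) followed for miR-142-5p. For miR-181a the nearest were miR-139-5p (0.017), miR-20b (0.062) and miR-365 (0.079). For miR-146a they were let-7b (0.019), let-7c (0.039) and miR-221 (0.050). So miR-146a and miR-181a each had neighbours as close as their own spot SE of 0.03 to 0.06. Outside the member list miR-142-5p had none nearer than 0.29.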

How the data were processed

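Per the submitters' processing notes, the authors used Agilent Feature Extraction (version 9.5.3.1) on the 3 arrays, 1 per stage. The deposited intensity of a spot is, per the file headers, its signal less a fitted spatial background, with no scaling between arrays. The deposited flags for detection, outliers and saturation are other values of that program, per the file headers. The deposited series table held the same intensity at all 12493 spots of each array (tolerance 0.0001), with medians of 1.05, 1.15 and 1.13 for early arousal, late torpor and post-reproduction. Its scale is linear and uncentred.

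From these, control spots and outlier spots were left out, log2 intensities were averaged per probe and scaled per array by the 75th percentile over 250 probes, and a miRNA took the mean of its probes detected on all 3 arrays. Spots at or below 0 were set to the lowest spot well above background, which touched 0 spots of measured members. The number of arrays limits the precision. Python 3.11.15, R 4.3.3 and limma 3.58.1 (normexp) were used. Differences and SE were checked on simulated spots with known differences. These were drawn with the spread between spots alone, so the check says nothing of error between pools. No test between stages was made. Of 13 other settings tried, 1 (the negative control median subtracted) was added after the data were seen. The members and lists were chosen with earlier results of these data known. Genes named beyond the members are the 3 nearest profiles of each measured member and list members set beside a result.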

Additional observations from a re-analysis of the deposited data

How the results depend on the processing

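Depth here means signal over background: miR-142-5p and miR-150 lie within a few times the detection limit. Pool, array and stage cannot be told apart. For the 18 member differences, 231 alternative values were computed: 17 lost and 20 gained the size of 0.5, 9 changed sign while under it, and none past it changed sign.

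The median of the measured members in late torpor against post-reproduction moved to -0.018 with the all-probe scaling without a floor. In early arousal against post-reproduction it moved to -0.56 with all probes and 0.044 with normexp, and in early arousal against late torpor to -0.18 with normexp. The cause was not tested, apart from the 50 units that normexp adds.

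The counts of members past 0.5 are given with the share of all measured miRNAs under the same setting. They are out of 6 members, but out of 5 with strict detection and out of 8 with lenient detection. In late torpor against post-reproduction, 0 were higher without scaling (6.67%), with the all-probe scaling without a floor (2.22%), the total signal (4.44%) and lenient detection (8.72%), and 1 after quantile normalization (8.15%), with normexp (5.93%) and with strict detection (6.25%). 1 was lower with the all-probe scaling without a floor (25.9%), the total signal (16.3%), strict detection (13.3%) and lenient detection (9.40%). In early arousal against post-reproduction, 4 were lower with all probes (33.3%), 2 without scaling and with the all-probe scaling without a floor (19.3% each), and 1 after quantile normalization (14.1%), with the total signal (20.0%), strict detection (21.9%), lenient detection (11.4%) and the negative control median subtracted (9.63%), an alternative added after the data were seen. There 1 was higher with the median scaling (14.1%). In early arousal against late torpor, 4 were lower with all probes (23%) and with the median of the spots of each probe (9.63%), and 2 with the median scaling (5.19%). There 1 was lower with the all-probe scaling without a floor (4.44%) and 0 with normexp (1.48%), and 1 was lower past 1 with all probes (3.70%).

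Of 267 alternative values for 21 differences between members, 122 equal the reported value, 84 of them because a shift of a whole array cancels. The total signal gives 21 more without an SE. Of the other 124, 110 stayed on the same side of 2 SE with the same sign. With normexp, miR-142-3p less miR-142-5p turned to 0.033 (late torpor against post-reproduction) and -0.21 (early arousal against late torpor) and passed 2 SE at -0.18 (early arousal against post-reproduction), as with strict detection (-0.17). There it turned to 0.044 with the brightest probe. miR-142-3p less miR-150 came to 0.14, -0.12 and -0.26 with normexp in late torpor against post-reproduction, early arousal against post-reproduction and early arousal against late torpor. It came to -0.077, -0.092 and -0.015 with the total signal in the same order, and to -0.021 after quantile normalization in the first. In late torpor against post-reproduction, miR-142-3p less miR-181a passed 2 SE with normexp (0.090) and with outlier spots kept (0.16), and miR-150 less miR-181a was -0.047 with normexp. In early arousal against late torpor, miR-223 less miR-142-3p was 0.022 with normexp, and miR-223 less miR-146a was -0.11 with lenient detection. No paired analysis was possible because each stage has 1 array.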
